A study of Mus musculus with 8 samples.

Results

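Cytochrome c oxidase, complex IV of the mitochondrial respiratory chain, was described here at the RNA level through 10 nuclear genes, *Cox4i1*, *Cox4i2*, *Cox5a*, *Cox6a1*, *Cox6a2*, *Cox7a2*, *Cox7a2l*, *Cox7c*, *Ndufa4* and *Ndufa4l2*. The 10 genes were selected on their symbols with the values of this same comparison already known, so their levels and differences are given as a description, with no p-value and with nothing read from where they fall against a threshold. All 10 have a row among the 22520 of the expression table, and 8 of them reached 1 FPKM (fragments scaled to transcript length and library size) in at least 4 of the 8 libraries, the level required for a fit.

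The cells were CD8+ T cells from the spleens of wild-type mice, kept under persistent stimulation of CD3 and CD28 with IL-2, a culture that drives T cells toward exhaustion. DADA (diisopropylamine dichloroacetate, an inhibitor of pyruvate dehydrogenase kinase) at 40 µM, or DMSO as the solvent control, was in the medium from day 3, and the cells were harvested on day 6, with 4 bulk mRNA libraries for each group. The comparison asks which transcripts differ between cells with DADA and cells with DMSO during late stimulation. The libraries do not measure the activity of the kinase or of pyruvate dehydrogenase. The methods name male C57BL/6J mice among those of the study without tying them to these spleens, and nothing says whether the replicates came from separate mice, so p-values measure only the spread between these libraries.

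Complex IV takes electrons from cytochrome c, passes them to oxygen and pumps protons across the inner mitochondrial membrane. Its catalytic core is built from subunits made on mitochondrial ribosomes, and the nuclear subunits around the core stabilise and tune it. Several nuclear subunits exist as pairs of isoforms: *Cox4i1* is the common form and *Cox4i2* the form raised by low oxygen in lung, *Cox6a1* is the widespread form and *Cox6a2* the form of heart and skeletal muscle, and *Ndufa4l2* is the relative of *Ndufa4* that hypoxia-inducible factor switches on. Activated T cells use both glycolysis and respiration, and the balance between them shifts during persistent stimulation.

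Of the 10 genes, the muscle form *Cox6a2* (ENSMUSG00000030785) differed most, and its widespread counterpart *Cox6a1* (ENSMUSG00000041697) differed little. The coding sequences of the pair are shown because the contrast between them holds only if reads can be assigned to one or the other. Both lines give the last 135 coding bases, stop codon included, read 5′ to 3′ from transcripts *Cox6a1-201* and *Cox6a2-201* of GENCODE M21 on mouse build GRCm38, where the genes lie on chromosomes 5 and 7, and capitals mark the 38 bases at which the aligned sequences differ.
Cox6a1: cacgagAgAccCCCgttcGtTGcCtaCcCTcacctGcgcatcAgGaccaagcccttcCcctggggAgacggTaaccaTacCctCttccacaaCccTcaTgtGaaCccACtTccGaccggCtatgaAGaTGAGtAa
Cox6a2: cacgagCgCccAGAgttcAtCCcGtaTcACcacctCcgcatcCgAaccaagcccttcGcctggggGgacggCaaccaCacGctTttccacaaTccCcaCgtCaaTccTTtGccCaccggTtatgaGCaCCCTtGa
Over all 288 aligned coding bases 62.5% were identical, and the longest run of bases that the 2 whole transcripts shared was 12. No window of 75 bases in the *Cox6a2* transcript occurs in a transcript of another gene.

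With DMSO, *Cox6a2* was at 59.5, 56.4, 54.9 and 53.0 FPKM in libraries 1 to 4. With DADA it was at 7.51, 8.04, 7.04 and 6.32 FPKM. The groups did not overlap, and the lowest DMSO library lay far above the highest DADA library. The means were 56.0 ± 2.75 (SD, n = 4) and 7.23 ± 0.729 FPKM (n = 4), a 7.74-fold lower level with DADA. On the log2(FPKM + 1) scale the difference was -2.79 with a standard error of 0.06. The pseudocount of 1 makes this log2 value smaller in size than one taken with a pseudocount of 0.01, which gave -2.96. On the scale with a pseudocount of 1, *Cox6a2* had the 2nd largest decrease among the 10666 genes that were fitted. That scale shrinks the decrease of genes that end near or below 1 FPKM, and the rank was not taken with other pseudocounts. Lower RNA from each cell and fewer cells that express a gene cannot be told apart in these bulk libraries, here or for any gene that follows.

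*Cox6a1*, the form found in most tissues, was at 216, 207, 188 and 200 FPKM with DMSO. Its values with DADA were 177, 185, 174 and 192 FPKM. The ranges overlapped by 1 library on each side, since the highest DADA library lay above the lowest DMSO library. The mean was 203 ± 11.6 FPKM with DMSO and 182 ± 8.17 FPKM with DADA (n = 4 each), a log2 difference of -0.16 with a standard error of 0.04.

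FPKM is scaled to transcript length, so the levels of the pair can be added. *Cox6a2* made up 21.6%, 21.4%, 22.6% and 20.9% of the summed FPKM of *Cox6a1* and *Cox6a2* in the 4 DMSO libraries. With DADA its share was 4.08%, 4.16%, 3.89% and 3.19%. The mean share was 21.6% ± 0.689 with DMSO and 3.83% ± 0.441 with DADA (SD, n = 4 each), and no DADA library came near the DMSO range. The summed level of the pair was 259 ± 13.8 FPKM with DMSO and 189 ± 7.94 FPKM with DADA. *Cox6a2* accounted for 69.9% of that difference in FPKM and *Cox6a1* for 30.1%.

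**Figure D1:**
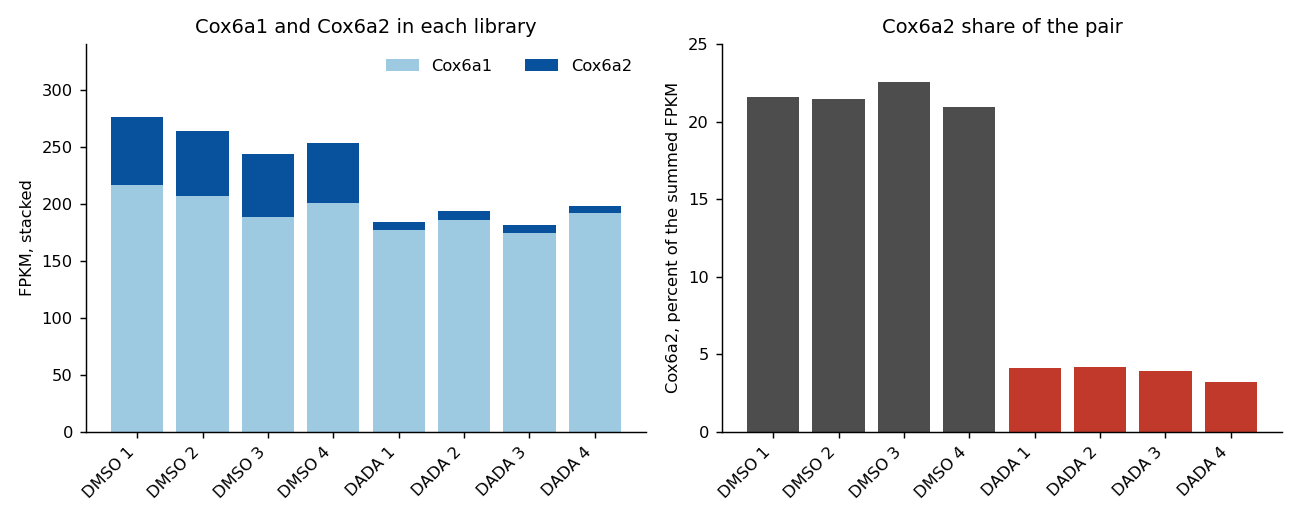
FPKM of *Cox6a1* and *Cox6a2* stacked for each library (left) and the percent of their sum that is *Cox6a2* (right, grey for DMSO and red for DADA). The share sits between 20.9% and 22.6% in the 4 DMSO libraries and between 3.19% and 4.16% in the 4 DADA libraries.

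*Cox6a2* is a gene of striated muscle, and the libraries were searched for other RNA of that tissue. Of 8 markers of striated muscle, *Tnni2*, *Myh4*, *Mb* and *Des* were at 0 in every library, and of 4 cardiac markers *Myh6* and *Actc1* were at 0. The summed FPKM of the striated muscle markers was 5.96 to 7.78 with DMSO and 7.98 to 9.17 with DADA, nearly all of it from *Mylpf*, a myosin light chain gene that reached 8.43 FPKM. The cardiac markers summed to between 0.784 FPKM in a DMSO library and 2.29 FPKM in a DADA library. The striated muscle sum, and with it *Mylpf*, was higher in every DADA library, and the cardiac ranges overlapped. Whether RNA from muscle contributed to the *Cox6a2* values was not tested.

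The CD8 T cell markers *Cd8a*, *Cd8b1*, *Cd3d*, *Cd3e* and *Cd3g* summed to 674 to 680 FPKM with DMSO and 776 to 805 FPKM with DADA, so the labelled cell type was present in all libraries. Markers of B cells, myeloid cells, NK cells and erythroid cells summed to at most 0.336 FPKM in any library. The myeloid marker *Csf1r* was at 0 throughout. Of the 3 CD4 T cell markers, *Zbtb7b* alone reached the level required for a fit. *Cd4* stayed at or below 0.411 FPKM and *Foxp3* at or below 0.268 FPKM in every library. The 3 summed to 15.2 to 17.2 FPKM over the 8 libraries, nearly all of it from *Zbtb7b*. Log2 values of the libraries correlated at 0.993 to 0.995 within groups and at 0.958 to 0.961 across groups, and no library stood apart from its group.

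*Cox5a* (ENSMUSG00000000088), a subunit on the matrix side of the complex, was the member with the largest increase. It was at 153, 156, 139 and 158 FPKM with DMSO. With DADA it was at 188, 193, 188 and 189 FPKM. Every DADA library lay above every DMSO library. The mean was 152 ± 8.75 FPKM with DMSO and 189 ± 2.17 FPKM with DADA (n = 4 each), 1.25-fold higher with DADA, and the log2 difference was 0.32 with a standard error of 0.04. The DMSO mean is lowered most by library 3.

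*Cox7c* (ENSMUSG00000017778), one of the smallest subunits, was at 114, 113, 117 and 113 FPKM with DMSO. With DADA its values were 102, 107, 92.7 and 94.8 FPKM. All 4 DADA libraries lay below the DMSO range, and they spread more widely than the DMSO libraries. The mean was 115 ± 1.98 FPKM with DMSO and 99.1 ± 6.57 FPKM with DADA (n = 4 each), a log2 difference of -0.21 with a standard error of 0.04. The level is uncertain, because 50.4% of the 75-base windows of the *Cox7c* transcript occur without mismatch in the annotated transcripts of *Gm10012* or *Gm12338*, and neither has a row in the table. How reads that match several places were counted is not given in the sources used here.

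*Ndufa4* (ENSMUSG00000029632), once counted as a complex I subunit and now placed in complex IV, was at 89.6, 92.3, 90.0 and 77.5 FPKM with DMSO. With DADA it was at 80.7, 75.7, 62.9 and 72.9 FPKM. The ranges overlapped through DMSO library 4, which lay below 1 DADA library. The mean was 87.3 ± 6.68 FPKM with DMSO and 73.0 ± 7.51 FPKM with DADA (n = 4 each), a log2 difference of -0.26 with a standard error of 0.08.

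The remaining members at high levels showed small differences. *Cox4i1* (ENSMUSG00000031818), the common form of subunit 4, was at 295, 275, 279 and 253 FPKM with DMSO and at 271, 281, 266 and 256 FPKM with DADA. The ranges overlapped almost wholly, and the log2 difference was -0.04 with a standard error of 0.04. *Cox7a2* (ENSMUSG00000032330), the form of subunit 7a outside muscle, spanned 82.0 to 97.2 FPKM in the DMSO libraries and 84.3 to 85.7 FPKM in the DADA libraries, which all lay inside the DMSO range. Its log2 difference was -0.09 with a standard error of 0.05. *Cox7a2l* (ENSMUSG00000024248), a relative of *Cox7a2* whose product helps complex IV join complex III in supercomplexes, spanned 152 to 161 FPKM in the DMSO libraries and 148 to 163 FPKM in the DADA libraries. The DADA range enclosed the DMSO range, and the log2 difference was 0.00 with a standard error of 0.03. For *Cox7a2l*, 13.4% of the 75-base windows also occur in *Gm6969*, and for *Cox6a1* 6.44% occur in another annotated gene. For *Cox4i1*, *Cox4i2*, *Cox5a*, *Cox7a2*, *Ndufa4* and *Ndufa4l2* no such window was found.

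**Figure D2:**
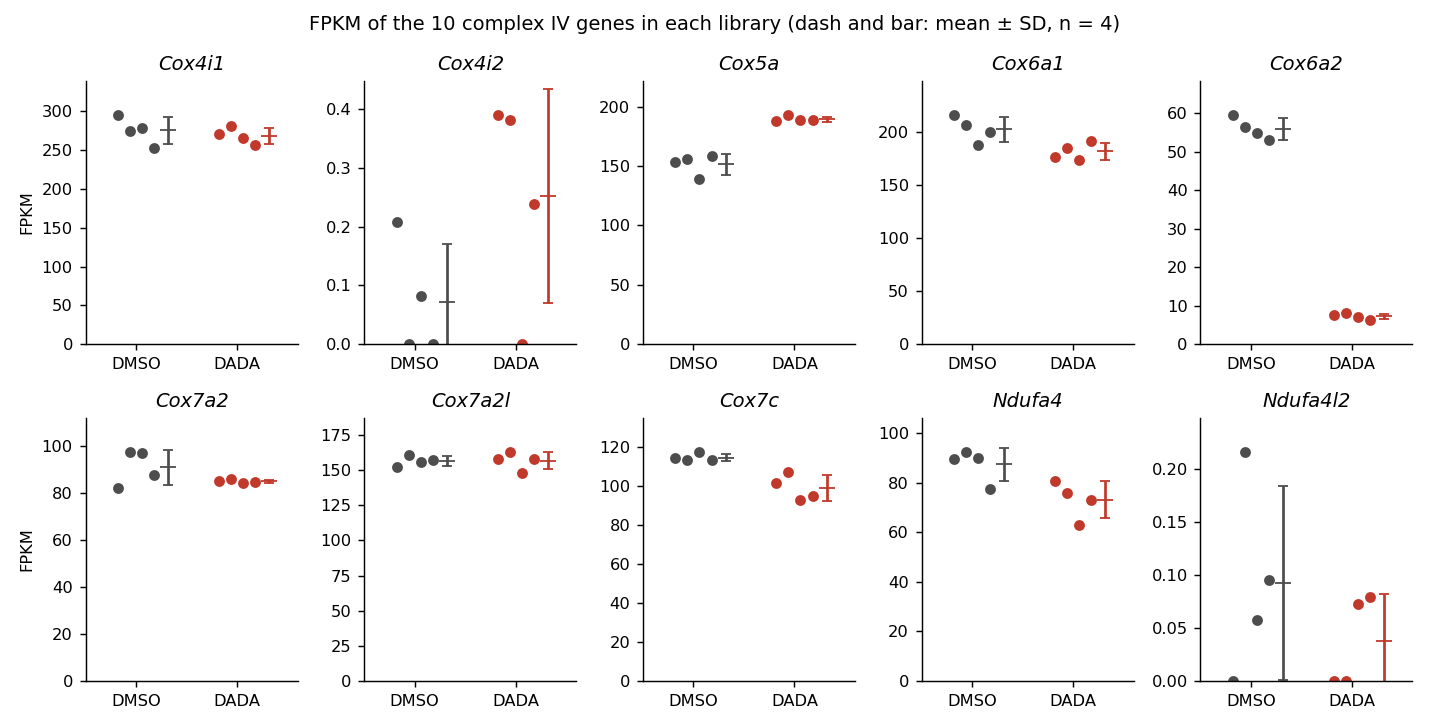
FPKM of each of the 10 members in the 4 DMSO (grey) and 4 DADA (red) libraries, each panel with its own axis from 0; the dash and bar give the mean ± SD. *Cox6a2* drops from 53.0 FPKM or more to 8.04 FPKM or less, *Cox5a* is higher in every DADA library, and *Cox4i2* and *Ndufa4l2* stay below 0.4 FPKM.

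The isoforms tied to low oxygen were close to absent in both groups. *Cox4i2* (ENSMUSG00000009876) was at 0.208, 0, 0.0824 and 0 FPKM with DMSO and at 0.390, 0.382, 0 and 0.239 FPKM with DADA. *Ndufa4l2* (ENSMUSG00000040280) was at 0, 0.216, 0.0577 and 0.0955 FPKM with DMSO and at 0, 0, 0.0728 and 0.0789 FPKM with DADA. Each was listed at 0 in both groups, the ranges overlapped, and neither reached the level required for a fit, so no fold is given. *Cox4i2* made up at most 0.143% of the summed FPKM of *Cox4i1* and *Cox4i2* in any library, and *Ndufa4l2* at most 0.233% of that of *Ndufa4* and *Ndufa4l2*. The pairs therefore stood far from the 20.9% to 22.6% that *Cox6a2* took with DMSO.

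Of the 8 members fitted, limma called 1 higher and 4 lower with DADA at an adjusted p under 0.05, adjusted over all genes fitted. Over all 10666 genes, 66.2% were called in either direction, 30.9% higher and 35.3% lower. In 3 of the 8 members (*Cox5a*, *Cox6a2* and *Cox7c*) the groups did not overlap, which was so for 60.6% of all genes. The median log2 difference of the 8 was -0.12, beside -0.02 for all genes. As the members were chosen from results of this contrast, nothing is read from these counts.

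The order of the levels was led by *Cox4i1* in both groups, and *Cox6a2* was the lowest of the 8. With DMSO the order was *Cox4i1*, *Cox6a1*, *Cox7a2l*, *Cox5a*, *Cox7c*, *Cox7a2*, *Ndufa4* and *Cox6a2*. The neighbours *Cox7a2l* and *Cox5a*, and *Cox7a2* and *Ndufa4*, overlapped in their library ranges, whereas the other neighbours were apart. With DADA *Cox5a* stood second, overlapping with *Cox6a1* below it, and all other neighbours were apart. Among the members at over 50 FPKM in both groups, the means thus spanned 87.3 to 276 FPKM (DMSO) and 73.0 to 269 FPKM (DADA).

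The spread between replicate libraries also differed among members. The coefficient of variation ran from 1.73% (*Cox7c*) to 8.19% (*Cox7a2*) with DMSO for the 8 fitted members, and from 0.761% (*Cox7a2*) to 10.3% (*Ndufa4*) with DADA. For the 6268 genes whose mean reached 10 FPKM the median was 3.60% with DMSO and 3.52% with DADA. Differences of about 10%, such as that of *Cox6a1*, were thus not far above the spread of single libraries.

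The rest of the enzyme was read from genes outside the 10, for which limma's adjusted p is given. Of 14 other subunit genes, 11 were fitted, of which 6 rose, 1 fell and 4 did not pass the test, with a median log2 difference of 0.09, beside the 30.9% called higher and 35.3% called lower among all genes. The count that rose was 3 with no filter on low values and 4 to 6 with a library left out (4 without DMSO library 3 or DADA library 2). One of the 6, *Cox7a1*, was fitted only because of its values with DADA, and without it 5 of 10 rose. The 3 mitochondrially encoded subunits, which form the catalytic core, were all among those that rose.

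*mt-Co1*, which carries the heme and copper centres that reduce oxygen, was at 5970, 5994, 5966 and 6101 FPKM with DMSO and at 6377, 6762, 6578 and 6518 FPKM with DADA (log2 difference 0.13, standard error 0.03, adjusted p = 0.00143). *mt-Co2*, which receives electrons from cytochrome c, had means of 1316 ± 53.7 and 1404 ± 53.4 FPKM (n = 4 each), a log2 difference of 0.09 with a standard error of 0.04 and a limma adjusted p of 0.0434. *mt-Co3*, the third core subunit, had means of 991 ± 24.8 and 1249 ± 32.4 FPKM (n = 4 each), a log2 difference of 0.33 with a standard error of 0.03 and a limma adjusted p of 2.13e-06. In all 3 genes every DADA library lay above every DMSO library. The call of *mt-Co2* was lost in 6 of 18 alternatives, while *mt-Co3* kept its direction and call in all of them. Under quantile normalization *mt-Co1* turned to -0.49 and was called lower (limma adjusted p = 3.26e-09). With no filter on low values *mt-Co1* was not called. The summed FPKM of the 3 was 8167 to 8415 with DMSO and 8964 to 9530 with DADA.

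Among the other nuclear subunits, 3 rose, 1 fell and 4 did not pass the test. *Cox7a1*, the heart and muscle form of subunit 7a, was at 0.461, 0.277, 0.142 and 0.889 FPKM with DMSO and at 1.63, 1.52, 1.40 and 1.43 FPKM with DADA. All 4 DMSO libraries were below 1 FPKM, so it reached the level required for a fit through the DADA group alone, and its call is no independent test. The log2 difference of 0.82 depended on the setting and ran from 0.52 under quantile normalization to 2.03 with a pseudocount of 0.01. With DADA it was 1.73% ± 0.108 (SD, n = 4) of the summed FPKM of *Cox7a1* and *Cox7a2*, against 0.499% ± 0.379 with DMSO.

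*Cox6b2*, the testis form of subunit 6b, was at 4.27 to 4.86 FPKM with DMSO and at 6.65 to 8.14 FPKM with DADA, a log2 difference of 0.57 with a standard error of 0.06 and a limma adjusted p of 1.84e-05. Its common counterpart *Cox6b1* had means of 103 ± 7.85 and 105 ± 4.82 FPKM (n = 4 each), with a log2 difference of 0.03, and did not pass the limma test (adjusted p = 0.583). *Cox8a*, the common form of subunit 8, fell from 204 ± 9.72 to 183 ± 8.94 FPKM (n = 4 each), a log2 difference of -0.15 with a limma adjusted p of 0.00959. *Cox8b*, *Cox8c* and *Cox7b2*, which are known from muscle or testis, were at 0 in every library.

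*Cox5b*, the partner of *Cox5a* in naming and another matrix-side subunit, was at 98.9, 104, 94.5 and 131 FPKM with DMSO and at 142, 136, 140 and 110 FPKM with DADA. Library 4 of each group stood apart from the other 3, in opposite directions, and the ranges overlapped. The log2 difference was 0.31 with a standard error of 0.11 and a limma adjusted p of 0.0271, a call that was lost in 8 of 18 alternatives, among them each of 6 left-out libraries. A row for the pseudogene *Cox5b-ps* held 14.6 ± 1.48 FPKM with DMSO and 14.9 ± 1.70 FPKM with DADA (n = 4 each).

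*Cox6c*, *Cox7b* and *AA467197* did not pass the test. *Cox6c*, a membrane subunit, had means of 119 ± 5.86 and 126 ± 3.61 FPKM (n = 4 each), a log2 difference of 0.07 with a limma adjusted p of 0.0944, and it was called higher in 4 of 18 alternatives. *Cox7b* had means of 79.1 ± 2.37 and 79.3 ± 3.04 FPKM (n = 4 each), with a limma adjusted p of 0.934. *AA467197*, a relative of *Ndufa4* known as Nmes1 and named as a complex IV subunit in inflammatory cells, was at 71.6 ± 1.87 and 68.6 ± 2.55 FPKM (n = 4 each), with a log2 difference of -0.06 and a limma adjusted p of 0.11. Its range lay below that of *Ndufa4* with DMSO and overlapped with it with DADA, and it was far above *Ndufa4l2* in both.

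Summed over the 16 nuclear subunit genes that were fitted, members included, FPKM was 1824 ± 43.6 with DMSO and 1764 ± 51.9 with DADA (SD, n = 4 each), a difference of -59.5 FPKM, of which *Cox6a2* alone made -48.7. Without *Cox6a2* the sums were 1768 ± 41.7 and 1757 ± 51.3 FPKM, and the difference was smaller than the spread between libraries.

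**Figure D3:**
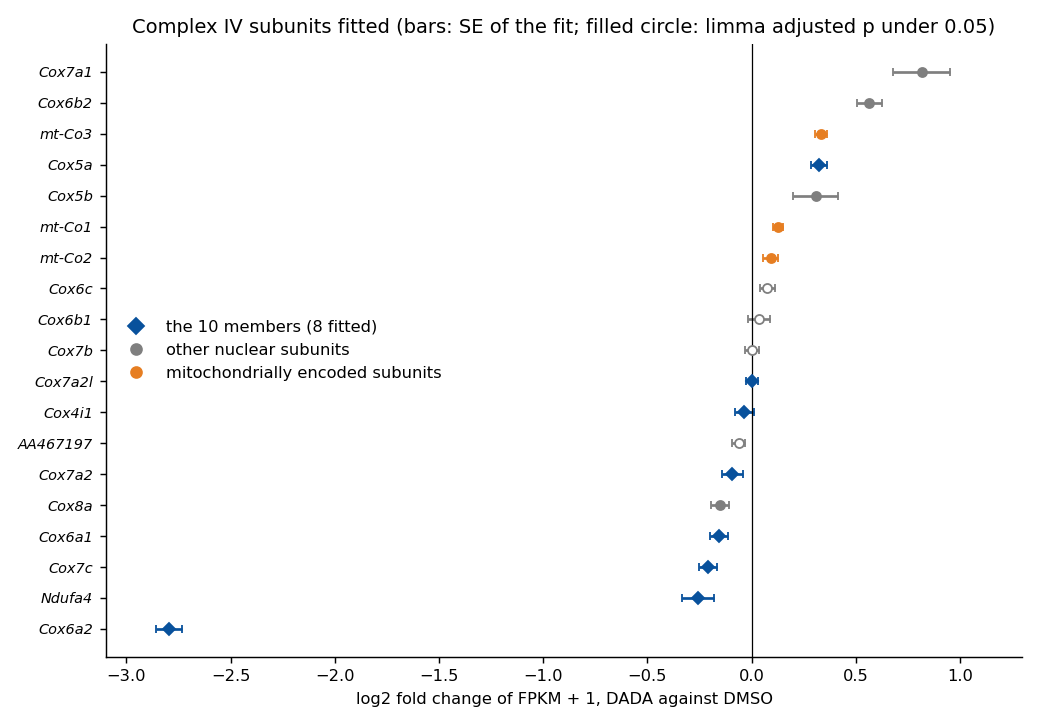
Log2 difference of FPKM + 1, DADA against DMSO, for the 19 subunit genes fitted, with the standard error as the bar; blue diamonds mark the members, drawn with no call, and circles mark other nuclear subunits (grey) and mitochondrially encoded ones (orange), filled where the limma adjusted p was under 0.05. *Cox6a2* lies at -2.79, and the other 18 lie between -0.26 and 0.82.

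Assembly of complex IV needs heme A, copper and a chain of chaperones. Of 33 genes for assembly and for copper and heme delivery in the table, 32 were fitted, of which 4 rose, 14 fell and 14 did not pass the test, with a median log2 difference of -0.13. The shares called were 30.9% higher and 35.3% lower for all genes, as above. With a library left out the count that fell ran from 10 (without DADA library 3) to 14, and it was 17 under quantile normalization. The count that rose was 4 or 5 in every alternative. Neither count was tested against the shares of all genes. On the heme A route, *Cox10*, which makes heme O, fell from 14.3 ± 1.05 to 9.45 ± 0.366 FPKM (n = 4 each; log2 difference -0.55, limma adjusted p = 6.63e-06). *Cox15*, which turns heme O into heme A, fell from 14.3 ± 0.462 to 10.7 ± 0.53 FPKM (n = 4 each; log2 difference -0.38, limma adjusted p = 2.07e-05). In both, all DADA libraries lay below all DMSO libraries.

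*Lrpprc*, whose product protects mitochondrial mRNAs, fell from 38.1 ± 0.455 to 27.0 ± 0.529 FPKM (n = 4 each; log2 difference -0.48, limma adjusted p = 7.77e-08). *Coa8*, an assembly factor, fell from 33.5 ± 2.34 to 23.5 ± 2.05 FPKM (n = 4 each; log2 difference -0.49, limma adjusted p = 7.65e-05).

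The largest rise in the list was that of *Higd1a*, a small protein of the inner membrane that is raised by hypoxia and binds complex IV. It was at 26.6, 21.7, 24.9 and 22.8 FPKM with DMSO and at 53.7, 56.4, 56.6 and 55.5 FPKM with DADA. The groups lay far apart, and the log2 difference was 1.18 with a standard error of 0.05 and a limma adjusted p of 3.82e-08. Its relative *Higd2a* was at 40.9 ± 1.71 and 40.2 ± 2.21 FPKM (n = 4 each) and did not pass the limma test (adjusted p = 0.644). *Timm21*, which links protein import to assembly, rose from 9.60 ± 0.544 to 12.2 ± 0.732 FPKM (n = 4 each; log2 difference 0.32, limma adjusted p = 0.000392). *Smim20*, an early partner of *mt-Co1* in assembly, rose from 16.8 ± 0.836 to 19.1 ± 0.916 FPKM (n = 4 each; log2 difference 0.17, limma adjusted p = 0.00669). The remaining one that rose was *Sco1*, a copper chaperone, with a log2 difference of 0.13 (limma adjusted p = 0.00134). *Fdx2*, a ferredoxin, ranged from 3.20 to 25.9 FPKM with no separation of the groups and did not pass the limma test (adjusted p = 0.878).

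Cytochrome c is the electron donor of the enzyme. *Cycs*, its somatic gene, fell from 60.7 ± 0.574 to 49.3 ± 2.75 FPKM (n = 4 each; log2 difference -0.30, limma adjusted p = 5.82e-05), and *Hccs*, the enzyme that attaches heme to it, rose from 23.2 ± 0.567 to 26.1 ± 0.995 FPKM (n = 4 each; log2 difference 0.16, limma adjusted p = 0.00174). The testis form *Cyct* stayed at or below 0.084 FPKM. *Higd2a*, *Fdx2*, *Sco1*, *Cycs*, *Cyct* and *Cox5b-ps* were named after their values were seen.

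**Figure D4:**
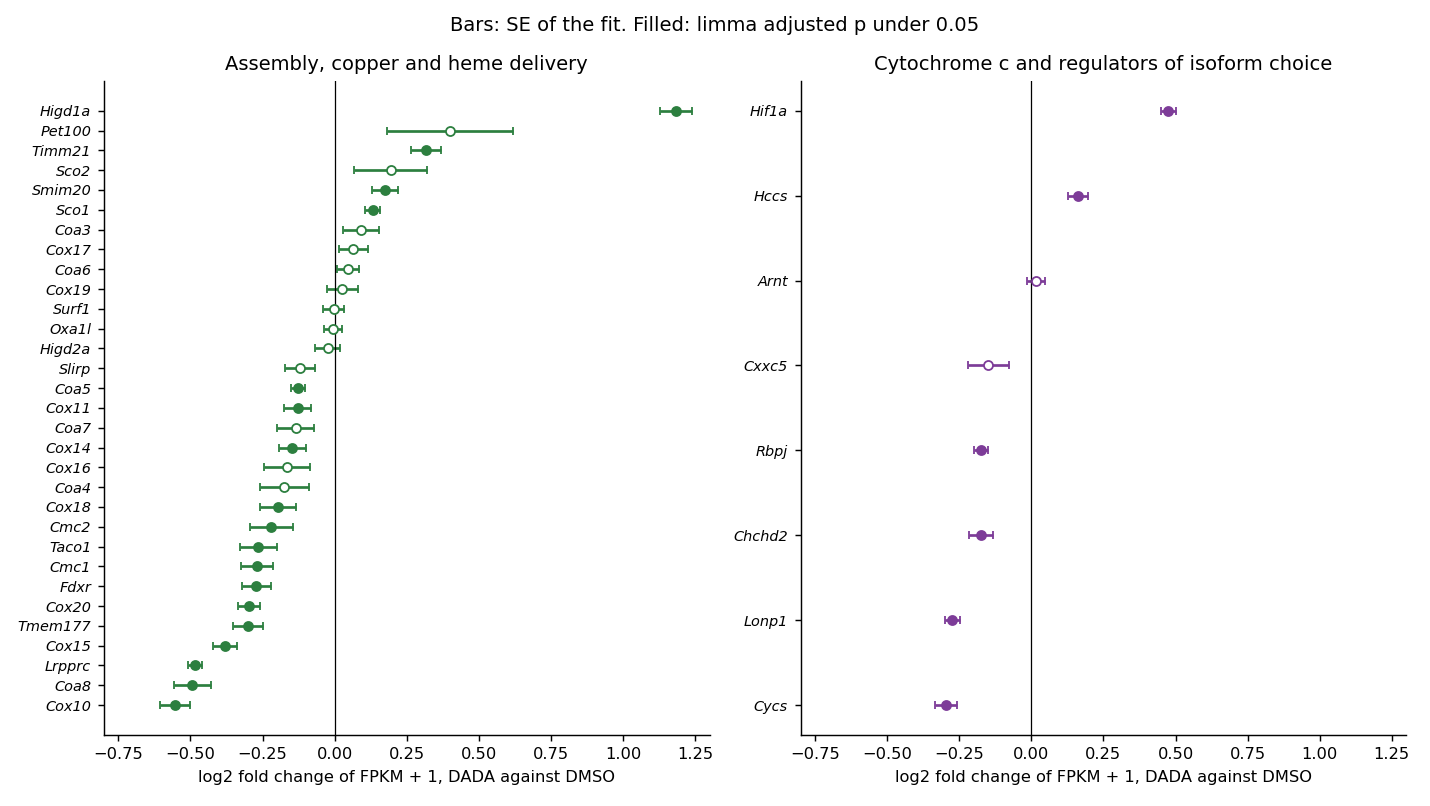
Log2 difference of FPKM + 1, DADA against DMSO, with the standard error as the bar, for assembly, copper and heme delivery genes (left) and for cytochrome c genes and regulators of isoform choice (right); filled points had a limma adjusted p under 0.05, and *Fdx2* is left out for its wide spread. *Higd1a* lies at 1.18 and *Hif1a* at 0.48, and *Cox10*, *Coa8*, *Lrpprc* and *Cox15* lie between -0.55 and -0.38.

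Of 7 genes that are known to set which isoforms are used, 6 were fitted, of which 1 rose, 3 fell and 2 did not pass the test, too few to set against the 30.9% and 35.3% called among all genes. *Hif1a*, the oxygen-regulated subunit of hypoxia-inducible factor, was at 205, 205, 214 and 217 FPKM with DMSO and at 289, 289, 299 and 294 FPKM with DADA. The groups were far apart, with a log2 difference of 0.48, a standard error of 0.02 and a limma adjusted p of 8.99e-08. The factor is controlled largely at the level of its protein, which was not measured here. Its partner *Arnt* was at 19.9 ± 0.609 and 20.1 ± 0.321 FPKM (n = 4 each) and did not pass the limma test (adjusted p = 0.668). *Epas1*, the related oxygen-regulated subunit, was at 0.23 to 0.504 FPKM with DMSO and 0.393 to 0.809 FPKM with DADA and was not fitted.

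*Lonp1*, the matrix protease that degrades the common subunit 4 in low oxygen, fell from 210 ± 2.44 to 173 ± 5.87 FPKM (n = 4 each; log2 difference -0.27, limma adjusted p = 7.74e-06). Of the factors known to act on the *Cox4i2* promoter, *Rbpj* fell from 209 ± 4.54 to 186 ± 4.20 FPKM (n = 4 each; log2 difference -0.17, limma adjusted p = 0.000125) and *Chchd2* from 204 ± 8.65 to 181 ± 9.57 FPKM (n = 4 each; log2 difference -0.17, limma adjusted p = 0.00422). The repressor *Cxxc5* was at 3.51 ± 0.148 and 3.08 ± 0.383 FPKM (n = 4 each) and did not pass the limma test (adjusted p = 0.0935). *Cox4i2* itself stayed at or below 0.390 FPKM throughout.

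The genes whose profiles were most like those of *Cox6a2* and *Cox5a* were found by the Euclidean distance in log2(FPKM + 1) over the 8 libraries, each gene centred on its own mean, among 10500 genes with an identifier. These distances use the same libraries as the choice of the members and are a description with no test. Nearest to *Cox6a2* was *Lag3*, an inhibitory receptor of T cells, at a distance of 0.514, with means of 169 ± 5.52 FPKM with DMSO and 29.6 ± 0.584 FPKM with DADA (n = 4 each). Then came *Trat1*, a T cell receptor adaptor, at 0.661, and *Csf2*, the gene of the cytokine GM-CSF, at 0.80. *Phyhd1*, a dioxygenase, at 1.14 and *Slc2a1*, the glucose transporter GLUT1, at 1.22 followed. On the log2(FPKM + 1) scale the differences of these 5 lay between -2.57 and -1.96, all smaller in size than that of *Cox6a2*. *Trat1* went from 10.0 ± 2.31 FPKM with DMSO to 0.832 ± 0.230 FPKM with DADA (n = 4 each). The pseudocount of 1 shrinks a difference at such low levels, so this order of sizes holds on that scale only.

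Nearest to *Cox5a* were the tetraspanin gene *Cd81* at a distance of 0.0788, *Fam3c* at 0.0838, *Ubxn8* at 0.0863, *Klhl9* at 0.0885 and the sulfotransferase gene *Tpst2* at 0.0887. Their log2 differences lay between 0.30 and 0.34, and DMSO library 3 was the lowest in each of them, as in *Cox5a*. None of these neighbours of *Cox6a2* and *Cox5a* is a subunit or assembly factor of complex IV on the lists used here.

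**Figure D5:**
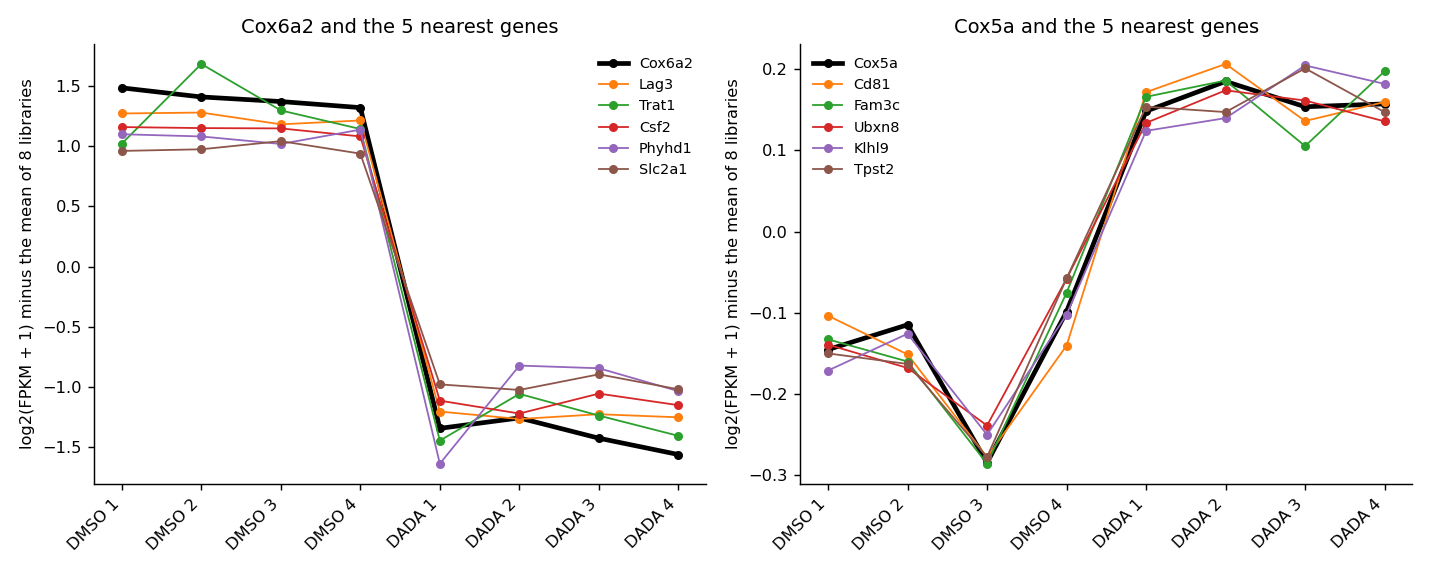
Log2(FPKM + 1) minus the mean over the 8 libraries for *Cox6a2* (left) and *Cox5a* (right), in black, and for the 5 genes nearest to each, in colour; a line joins the values of 1 gene, and libraries within a group have no order. The 6 genes on the left differ between the groups by -2.79 to -1.96, and on the right DMSO library 3 is the lowest point of every gene.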

How the data were processed

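The authors deposited 1 table of FPKM values for 8 mouse libraries, 4 with DMSO and 4 with DADA, grouped here by their titles. The submitters' processing notes name CASAVA 1.8.2, FastQC 0.11.9, HISAT2 2.0.5, StringTie 1.3.3, Picard 1.41 and SAMtools 0.1.18, and a human and a mouse build, without saying which step used each, so no coordinates are given. FPKM values hold no read counts. In 4431 genes with a single annotated transcript, 43.5% to 49.4% of low values lay within 0.1 of a whole step. The step was chosen to make this share largest, so it cannot be set against the 20% that chance gives for a fixed step. Whole reads were thus not recovered for most values, and a step could stand for a read or for a fragment, so depth was left unknown and no count test was run. FPKM totals were 438299 to 456939 per library.

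Genes with at least 1 FPKM in at least 4 of 8 libraries were fitted as log2(FPKM + 1) with limma 3.58.1 in R 4.3.3 (lmFit, eBayes with a trend, Benjamini-Hochberg adjustment over 10666 genes, call at an adjusted p under 0.05) and no replicate block. Fold changes on this scale understate those of low genes. Shares and sums were taken per library from FPKM, in Python 3.11.15 with pandas 2.3.3. Sequences came from GENCODE M21 transcripts, and windows of 75 bases were compared without mismatch.

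The members and gene lists were chosen with earlier results of these data known. Named genes were every member, every other subunit or isoform regulator with a value above 0, the 4 called assembly or cytochrome c genes with the largest change in each direction, and the 5 genes nearest to the members with the largest fall and rise. Alternatives were pseudocounts of 0.1 and 0.01, no filter, a mean of at least 5 FPKM, rescaling to the same total, quantile normalization, median-ratio scaling, a fit with no eBayes trend, a replicate block, assembled transcripts left out, and each library left out in turn. A gene of the assembly list without a row was not analysed here.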

Additional observations from a re-analysis of the deposited data

Results flagged for a closer look

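The 88 sets of 4 libraries looked at did not cover every gene named, with *Fdx2*, *Cd3d* and *Mylpf* among those left out. Of the 88, 5 held a library far from the other 3 relative to the range of the set. Chance alone gives about 1 in 20, or 4.4 sets. *AA467197* was at 72.4 FPKM in DADA library 4 and at 66.9 to 67.6 FPKM in the other 3 (gap over range 0.872). *Lonp1* was at 213 FPKM in DMSO library 3 and at 208 to 209 FPKM in the others (0.909). *Cxxc5* was at 2.50 FPKM in DADA library 1 and at 3.26 to 3.28 FPKM in the others (0.983). *Csf2* was at 80.0 FPKM in DMSO library 4 and at 83.9 to 84.5 FPKM in the others (0.852). *Tpst2* was at 21.6 FPKM in DADA library 3 and at 20.8 to 20.9 FPKM in the others (0.879). None of these is one of the 10 members.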

How the results depend on the processing

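For the members, values and not calls are given over the 18 alternatives. The log2 difference of *Cox5a* ran from 0.28 to 0.35, of *Cox6a1* from -0.19 to -0.12, of *Cox7c* from -0.25 to -0.16 and of *Ndufa4* from -0.31 to -0.19. The log2 difference of *Cox6a2* ran from -2.96 to -2.74, and its share of the pair, with libraries left out, from 21.3% to 21.9% with DMSO and from 3.72% to 4.04% with DADA. *Cox7a2l* changed sign in 5 alternatives, within -0.02 to 0.03. The count of other subunits that rose was 6, 4 to 6 with a library left out, and 3 with no filter on low values, where *Cox5b*, *mt-Co1* and *mt-Co2* were not called. The count that fell was 1, and 2 under quantile normalization, and 1 to 2 with a library left out (2 without DADA replicate 4, where *AA467197* was called). With no filter, 2 regulators rose instead of 1. Under quantile normalization *mt-Co1* was at -0.49 and was called lower, and the cause was not tested. With a library left out, *Cox7b* ran from -0.0111 to 0.0307 and *Arnt* from -0.0053 to 0.026.

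With the replicate block, 6995 genes were called in place of 7064, 3251 higher and 3744 lower, and the call of *Cox5b* was lost (adjusted p = 0.0739) and *Cox6c* was called higher (adjusted p = 0.0358). Same-numbered libraries correlated at -0.12 to 0.10 in their deviations from the group means, and not every library correlated best with its own number. These values show no pairing by number, but they cannot tell whether same-numbered libraries shared a source. Of the 25 genes outside the members that were followed through the alternatives, 17 kept direction and call in every alternative. *Sco1*, *Cycs*, *Higd2a*, *Fdx2*, the cell type markers and the genes nearest to *Cox6a2* and *Cox5a* were not among the 25. The unknown depth means that the counting error of low genes such as *Cox4i2*, *Ndufa4l2* and *Cox7a1* could not be estimated.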
